A study of Cardamine sp. SIM-2007 with 7 samples.

Results

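The Aurora kinases AUR1 and AUR2 were each measured by 1 probe set, 253403_at for AUR1 and 266655_at for AUR2, on Arabidopsis ATH1 arrays hybridized with material of Cardamine kokaiensis. They are the probe sets to which the platform annotation gives the single gene symbol AUR1 or AUR2, 2 of 22810 probe sets and 2 of the 13350 genes that the annotation names on a probe set of their own. The rule reads only the annotation, and the pair was picked with earlier results of these data known.

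Aurora kinases are serine/threonine kinases of dividing cells that act on the spindle, on chromosomes and in cytokinesis. In Arabidopsis, AUR1 and AUR2 are close paralogs found on spindle microtubules and the forming cell plate, and they act in orienting formative divisions. AUR3, the remaining family member, is found at centromeres. Because their transcripts accumulate around mitosis, they are commonly read as markers of cells in division in meristems and young organ primordia.

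RNA came from primordia of the first inflorescence, each taken with its first 8 flower primordia once the first flower was visible, and 160 primordia were pooled per sample. Cleistogamous (CL) flowers, which stay closed and self-pollinate, were induced by 28 days of chilling after germination. Flowers named intermediate (INT) were induced by 14 days of chilling after germination, and chasmogamous (CH) flowers, which open, by 14 days of chilling before germination. Each type had 2 biological replicates, so 6 RNA arrays were compared, and 1 array without a replicate held genomic DNA from leaves of plants that had not been chilled. The labels name no strain, every RNA group was chilled, and flower type and chilling regime changed together. In pooled tissue, fewer dividing cells and less transcript per dividing cell cannot be told apart.

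AUR2 had lower signal in INT primordia than in the other flower types, and AUR1 was close to level across all 6 arrays. The deposited intensity of AUR2, in linear units scaled by array, was 369.7 and 239.2 on the INT arrays, naming replicate 1 first here and below. It was 623.3 and 552.6 on the CH arrays. It was 831.2 and 629.3 on the CL arrays. Both INT arrays lay below all 4 others, as for 7.71% of all probe sets after normalization. The lowest CL array lay just above the highest CH array, and both CL arrays lay above both CH arrays for 13.9%. None of the AUR2 differences passed the adjusted limma threshold given below. AUR1 read 1677 and 1636 in INT and 1621 and 1537 in CH. In CL it read 1588 and 1277. For AUR1 the INT arrays were the highest of the 6 by a narrow margin, CL and CH overlapped, and CL replicate 2 was the lowest. The highest array exceeded the lowest 1.31-fold for AUR1 and 3.47-fold for AUR2.

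**Figure D1:**
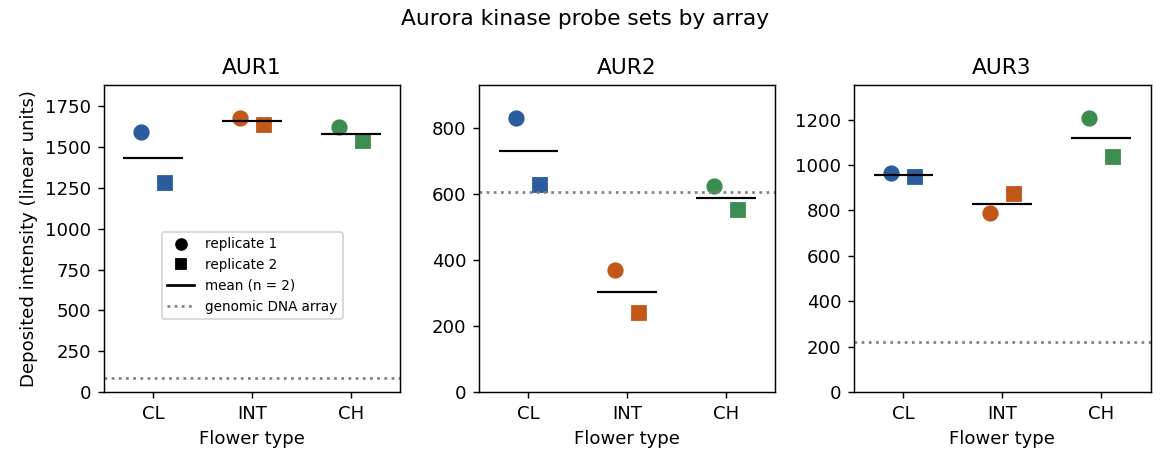
Deposited intensity (linear units, axis from 0) of the AUR1, AUR2 and AUR3 probe sets on each RNA array by flower type; circles are replicate 1, squares replicate 2, bars the mean of 2 arrays and the dotted line the genomic DNA array. AUR2 reads 369.7 and 239.2 in INT against 552.6 to 831.2 on the other arrays, while AUR1 stays between 1277 and 1677.

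All tests were made on log2(intensity + 28.2) after quantile normalization, which makes the spread of values the same on every array, with limma fitted to the 22746 probe sets that are not controls. On that scale AUR2 was 9.58 ± 0.25 (SD, n = 2) in CL, 9.25 ± 0.09 (SD, n = 2) in CH and 8.36 ± 0.46 (SD, n = 2) in INT. From the highest INT array to the lowest of the others the gap was 0.51 log2 units. The order of the types was CL, CH, INT within the arrays numbered 1 and again within those numbered 2, an order found for 3.06% of all probe sets. Replicate 1 was above replicate 2 in each type, as for 15.1% of probe sets, and the largest gap between replicates of AUR2, 0.65 log2 units, was in INT.

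In CL the level of AUR2 exceeded that in INT by 1.22 log2 units, a 2.33-fold difference, with a standard error of 0.31 and a 95% interval from 0.50 to 1.94. The unadjusted limma p was 0.00472 and the Benjamini-Hochberg adjusted p 0.985, so the difference did not pass the adjusted threshold of 0.05. Of all probe sets, 87, or 0.382%, had a p at or below that of AUR2 in this comparison. CL against INT compares 28 with 14 days of chilling after germination. At the adjusted threshold limma called 0% of probe sets here, and 4.4% had an unadjusted p under 0.05. Both CL arrays lay above both INT arrays, as for 17% of probe sets. Leaving out INT replicate 2 gave 0.89, leaving out INT replicate 1 gave 1.55, and the interval excluded 0 with any single array left out. Within replicate numbers the intensity ratio of CL to INT was 2.25 and 2.63.

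Between INT and CH, which had equal lengths of chilling at different stages, the difference of AUR2 was -0.89 log2 units, or 1.86-fold lower in INT. Its standard error was 0.31 and its interval ran from -1.62 to -0.17. The unadjusted limma p was 0.0213 and the adjusted p 0.984, again past the unadjusted but not the adjusted threshold. Over all probe sets, 0% were called by limma in this comparison. An unadjusted p under 0.05 was reached by 4.73%, and both INT arrays lay below both CH arrays for 17.9%. The difference was -0.57 without INT replicate 2 and -1.22 without INT replicate 1. Single arrays decided whether the interval excluded 0. It ran from -1.37 to 0.24 without INT replicate 2, from -1.80 to 0.14 without CH replicate 1 and from -1.91 to 0.00086 without CH replicate 2.

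Between CL and CH, closed against open flowers, AUR2 was 0.32 log2 units higher in CL, with an interval from -0.40 to 1.04 and an unadjusted limma p of 0.328. The arrays of CL were both above those of CH, as for 13.9% of probe sets. In this comparison 0% of probe sets were called by limma, and 3.54% reached an unadjusted p under 0.05. Leaving out CL replicate 1 gave 0.15, and leaving out CL replicate 2 gave 0.50. CL and CH thus differed by no more than the spread of the arrays, and values up to 1.04 log2 units lay inside the 95% interval. A joint limma F-test over the 3 types gave AUR2 an F of 8.27, an unadjusted p of 0.0121 and an adjusted p of 0.996. F was 3.67 without INT replicate 2 and 5.34 without CL replicate 1. That unadjusted p was reached by 1% of probe sets, and 4.21% of all probe sets had one under 0.05. Low signal on both INT arrays relative to all 4 others occurred in 7.71% of probe sets. It occurred by at least the 1.06 log2 units that separated the AUR2 means in 1.17%.

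For AUR1 no difference between 2 flower types was larger than the spread of the arrays. Its log2 intensity was 10.71 ± 0.001 (SD, n = 2) in INT, 10.66 ± 0.12 (SD, n = 2) in CH and 10.51 ± 0.29 (SD, n = 2) in CL. The difference between CL and CH was -0.15, with an interval from -0.63 to 0.32 and an unadjusted limma p of 0.482. Between INT and CH it was 0.05, with an interval from -0.43 to 0.52 and an unadjusted p of 0.827. Between CL and INT it was -0.20, with an interval from -0.67 to 0.28 and an unadjusted p of 0.364. The adjusted limma p was 0.985 in CL against INT and higher in the other comparisons, and the F-test gave an unadjusted p of 0.620. Each interval reached 0.47 log2 units to either side of its difference. On this scale the 3 types overlapped. The standard deviation of AUR1 over the 6 arrays, 0.17 log2 units, was at or above that of 9.26% of all probe sets, and that of AUR2, 0.61, at or above that of 77.2%.

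The direction of each AUR1 difference turned with a single array. Without CL replicate 2 the difference between CL and CH was 0.053 and that between CL and INT 0.0072. Without CH replicate 2 that between INT and CH was -0.038. For AUR2 no array, left out alone, turned the direction of any of the 3 differences. Its arrays did not overlap between types, so leaving out a single array could not turn a direction.

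The changes of the pair were set against each other within arrays, which compares changes and not levels. From CH to INT the change of AUR1 exceeded that of AUR2 by 0.94 log2 units, by 0.61 without INT replicate 2 and by 1.27 without INT replicate 1. From INT to CL it was below that of AUR2 by 1.42, and from CH to CL by 0.48. In each of the 3 comparisons the arrays of one type were all on one side of those of the other. The same held for AUR2 alone, and AUR1 was close to level, so this separation largely restates that of AUR2. Single probe sets separated in the direction of AUR2 for 13.9% to 17.9% of all, depending on the comparison. How often other pairs of genes separate was not counted. The exact two-sided permutation test gave p = 0.333 for each, also after adjustment over the 3, which is the smallest p that 2 arrays against 2 allow. Without either CH array the p for INT against CH was 0.667.

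Over the 6 RNA arrays, log2 intensities of AUR1 and AUR2 had a Pearson r of -0.27 (exact two-sided permutation p = 0.553) and a Spearman rho of 0.14 (exact permutation p = 0.803). Both p-values were 0.803 when adjusted over these 2 statistics. Without CL replicate 2 and CH replicate 2, the arrays farthest from the median of AUR1, r was 0.50 over 4 arrays. It was 0.26 over the 3 arrays numbered 1 and -0.84 over the 3 numbered 2. No relation between the 2 kinases that holds across these arrays was found.

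On the genomic DNA array the kinases differed in the opposite sense to their RNA signal. AUR1 had a DNA intensity of 87.3, at the 17.5th percentile of all probe sets, whose median was 397.7. AUR2 had a DNA intensity of 607.9, at the 67.6th percentile. The mean RNA log2 intensity of AUR1, 10.63, was at the 92.0th percentile and that of AUR2, 9.06, at the 69.7th. Of the 3986 probe sets with DNA intensity at or below that of AUR1, 65, or 1.63%, had a mean RNA level at or above that of AUR1, against 8.05% of all probe sets. AUR1 thus combined weak DNA signal with strong RNA signal. The DNA values come from 1 array, and leaf DNA holds every gene whether or not it is transcribed. Per the labels, the RNA arrays were calibrated against that same array, so RNA and DNA signal may not be independent.

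**Figure D2:**
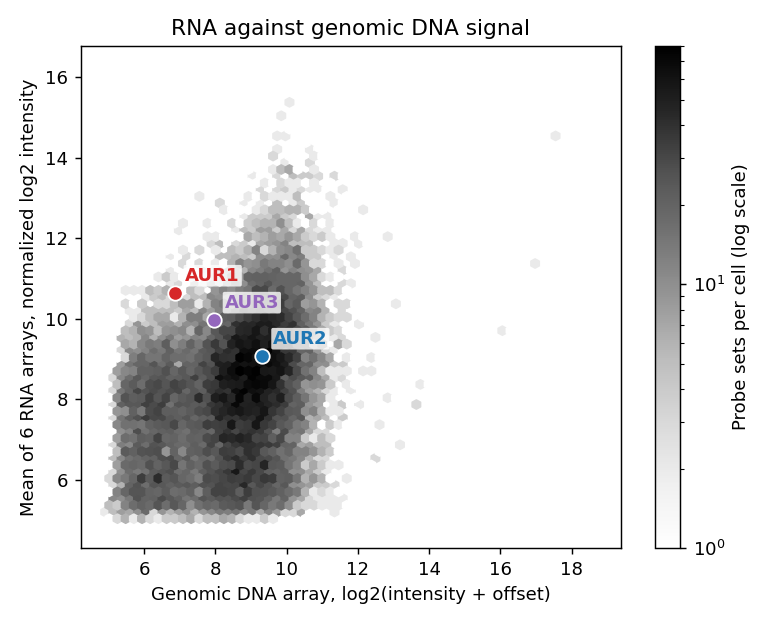
Mean normalized log2 intensity over the 6 RNA arrays against log2 intensity on the genomic DNA array; grey cells count probe sets on a log scale, and points mark the Aurora kinases. AUR1 lies at the upper left edge with DNA intensity 87.3 and mean RNA log2 level 10.63, and AUR2 lies within the main body at 607.9 and 9.06.

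The brightness of a probe set depends on how well its Arabidopsis probes bind Cardamine sequence, so these percentiles are not transcript amounts and the kinases are not ranked by abundance here. The sequences of the probes were not used here, and the part of AUR1 and AUR2 transcripts each probe set may take from its paralog was not tested.

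AUR3, which acts at centromeres, read 1208 and 1034 in CH, 966.1 and 945.7 in CL and 788.5 and 872.4 in INT. Both INT arrays were again the lowest of the 6, as for 7.71% of probe sets, here by 0.12 log2 units after normalization. The limma F-test over the 3 types gave AUR3 an unadjusted p of 0.183. The difference between INT and CH was -0.42, with an interval from -0.90 to 0.05 and an unadjusted limma p of 0.0742. Between CL and INT it was 0.21, with an interval from -0.27 to 0.68. Between CL and CH it was -0.22, with an interval from -0.69 to 0.26. The adjusted limma p was above 0.98 in each, so AUR3 did not pass. Its order of means was CH, CL, INT, unlike the order CL, CH, INT of AUR2.

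Of 7 listed Aurora kinases and partners, 6 were named by the annotation, TPX2 not among them. WYR, the plant INCENP that holds Aurora kinase in the chromosomal passenger complex, had means of 7.59 in CL, 7.16 in INT and 7.57 in CH. Its difference between INT and CH was -0.41 with an interval from -1.67 to 0.85. Haspin, a histone H3 kinase whose mark recruits that complex to centromeres in animals, had means of 8.07, 8.13 and 7.86 in the same order. Its difference between INT and CH was 0.27 with an interval from -0.71 to 1.26. AT4G39630 had a difference of -0.29 between CL and CH with an interval from -0.77 to 0.20. In this list of 6 the adjusted threshold was passed by 0 in every comparison. Of the 6, AUR2 alone had an unadjusted p under 0.05, in INT against CH and in CL against INT, where 4.73% and 4.4% of all probe sets had one. The DNA intensities of WYR and Haspin were low as well, 82.7 and 43.5.

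**Figure D3:**
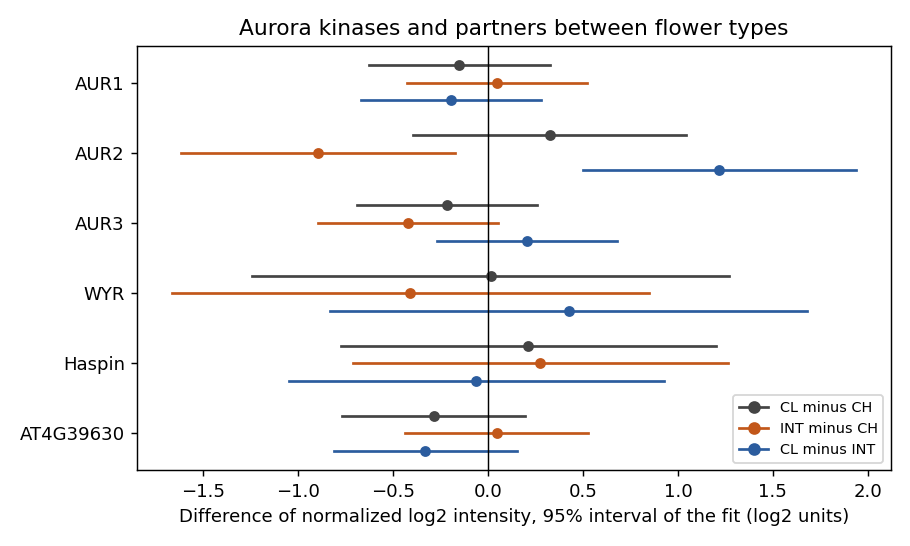
Differences of normalized log2 intensity between flower types (points) with the 95% interval of the limma fit (lines) for the 6 measured Aurora kinases and partners. For AUR2 the interval excludes 0 in INT against CH (-1.62 to -0.17) and in CL against INT (0.50 to 1.94), the first of these no longer without INT replicate 2 or either CH array, and for the other 5 genes every interval includes 0.

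Differences of other measured genes of cell division lay on both sides of 0 in each comparison of flower types. Of 97 genes in the cell division lists, AUR1 and AUR2 included, the annotation named 12, among them 0 of 21 mitotic cyclins and cyclin-dependent kinases, so those regulators are not described. A further 23 cell division genes were taken from the symbols of the annotation once it had been read. Without AUR1 and AUR2 this left 33 genes, of which 0 passed the adjusted limma threshold in any comparison. In INT against CH their median difference was 0.04, with 18 higher and 15 lower, against a median of -0.01 over all probe sets, and 0 of the 33 had an unadjusted p under 0.05, against 4.73% of all probe sets. In CL against INT the median was 0.02, with 19 higher and 14 lower, and 2 had an unadjusted p under 0.05, against 4.4% of all probe sets. These 2 were BUB3.1 (-0.74) and SKP2A (-0.83), both lower in CL, where AUR2 was higher. In CL against CH the median was 0.01, with 18 higher and 15 lower, and 2 had an unadjusted p under 0.05, against 3.54% of all probe sets. The AUR2 difference in CL against INT, 1.22, was larger than that of any of these 33 genes, which ranged from -0.83 to 0.97. In INT against CH they ranged from -0.97, for BUBR1, to 1.31, for SIM, and the -0.89 of AUR2 lay within that range. In CL against CH they ranged from -1.09 to 1.91, also around the 0.32 of AUR2.

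**Figure D4:**
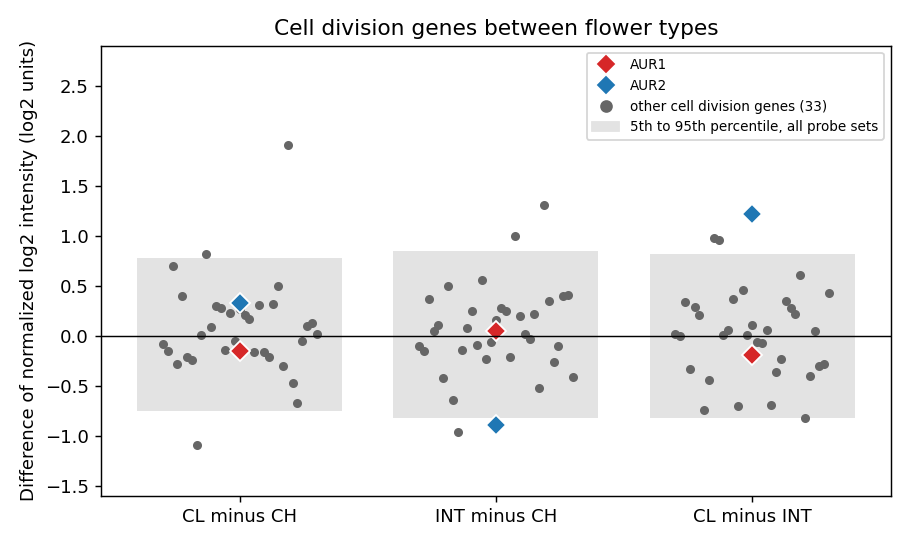
Differences of normalized log2 intensity in the 3 comparisons for AUR1, AUR2 and the 33 other cell division genes, with a grey band from the 5th to the 95th percentile of all probe sets. AUR1 lies inside the band throughout; AUR2 lies inside it in CL against CH and outside it in INT against CH (-0.89) and CL against INT (1.22).

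Among genes of the spindle checkpoint and chromosomes, BUBR1, a protein of the checkpoint that delays anaphase, had means of 8.17 in CL, 7.19 in INT and 8.16 in CH. Its INT arrays had an SD of 1.07, and the interval of INT against CH ran from -2.38 to 0.45. BUB3.1, which brings checkpoint proteins to the kinetochore, had means of 11.33, 12.08 and 11.58 in that order. Its difference of -0.74 in CL against INT ran opposite to that of AUR2, with an unadjusted limma p of 0.0295 and an adjusted p of 0.985. HTR12, the centromeric histone H3, differed by 0.16 between INT and CH, and TOPII, topoisomerase II, by -0.10. Of the genes of chromosomes and cell plate with the highest RNA level, KEU, a Sec1 protein needed for vesicle fusion at the cell plate, differed by -0.21 between INT and CH. The condensin gene ATSMC2 differed by 0.10. HBT, a subunit of the anaphase-promoting complex, differed by 0.25, and TPLATE, an endocytic adaptor at the cell plate, by 0.39. Of these 8 genes, BUB3.1 had the only unadjusted p under 0.05, in a comparison where 4.4% of all probe sets had one.

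Among S-phase genes with the highest RNA level, PRL, the MCM7 subunit of the replicative helicase, had means of 11.55 ± 0.17 (SD, n = 2) in CL, 11.20 ± 0.06 in INT and 11.23 ± 0.26 in CH. Its difference between CL and INT was 0.35 with an interval from -0.12 to 0.82. The histone H2B genes HTB1 and HTB4 differed by 0.37 and 0.01 in that comparison, and POLA3, a primase subunit, by -0.36. TSO1, a cysteine-rich regulator of division in floral meristems, differed by -0.29 between CL and INT. SIM, an inhibitor of cyclin-dependent kinases that favours endoreduplication, had means of 8.65 ± 0.002 in CL, 8.05 ± 0.02 in INT and 6.74 ± 1.39 in CH. Its difference of 1.91 between CL and CH had an interval from 0.41 to 3.41 and an unadjusted limma p of 0.0190. The CH arrays of SIM lay far apart, with intensities of 27.8 and 174.6, and the adjusted p was 1 when rounded. The value of CH replicate 1 was near the offset of 28.2, at the 10.4th percentile of its array. BUB3.2, a checkpoint protein named after its values had been seen, was 1.09 lower in CL than in CH, with means of 8.03 and 9.12, an unadjusted limma p of 0.0144 and an adjusted p that also rounded to 1.

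The genes whose pattern over the 6 RNA arrays was most like that of each kinase were sought among probe sets with 1 gene, mean RNA level above the median and a spread at or above the median. For AUR2 these were AT3G24670 (r = 0.971), AT1G14810 (r = 0.971), AT2G31390 (r = 0.970), AT5G42470 (r = 0.965) and AT4G18030 (r = 0.964), out of 1797 probe sets. AT2G31390 had means of 9.92 in CL, 8.32 in INT and 9.38 in CH, the order seen for AUR2. The most opposite patterns belonged to BGLU44, a glycosidase (r = -0.985), AT5G66960 (r = -0.960) and AT1G36990 (r = -0.957). BGLU44 had means of 8.52 in CL, 9.59 in INT and 8.89 in CH. For AUR1 the most alike were AT4G05260 (r = 0.981), LEP, an AP2-type transcription factor (r = 0.981), GSTL3 (r = 0.975), AT3G18190 (r = 0.969) and AT5G13470 (r = 0.948), out of 1798. Like AUR1, AT4G05260 varied most within CL, with an SD of 1.17 there and 0.01 in INT. The most opposite to AUR1 were the plastid gene psbT (r = -0.905), AT4G28080 (r = -0.905) and AT1G76050 (r = -0.903). These correlations over 6 arrays are descriptions, and the arrays share their scaling.

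The labelled tissue could be checked with few markers. Of 14 floral meristem and organ markers the annotation named UFO and JAG, and of 5 shoot meristem markers CLV3. No marker was listed at 0. The summed intensity of UFO and JAG was 563.8 and 558.6 in INT, 790.7 on each CH array, and 357.6 and 652.6 in CL. CLV3, a signal peptide of the shoot meristem, read 67.1 and 53.6 in INT, 61.0 and 34.3 in CH, and 142.0 and 109.1 in CL. Its CL mean exceeded its INT mean by 0.84 log2 units, with an interval from -0.16 to 1.85. It exceeded its CH mean by 1.03, with an interval from 0.023 to 2.03 and an unadjusted limma p of 0.0460. That difference did not pass the adjusted threshold, and 3.54% of all probe sets had an unadjusted p under 0.05 there. Both CL arrays of CLV3 lay above both INT arrays, as for 17% of probe sets, and above both CH arrays, as for 13.9%. The mean RNA level of CLV3 was low, at the 21.0th percentile. Leaf photosynthesis had 2 of 8 markers, RCA and PSAN, with sums from 8615 to 13833, and anther and pollen 2 of 5, AMS and SPL, with sums from 235.7 to 580.1. SPL, an early anther regulator, read 25.2 and 45.7 in INT against 55.3 to 91.4 on the other arrays. Its mean RNA level was low too, at the 17.5th percentile, and its INT values were near the offset of 28.2. Signal on both INT arrays below all 4 others occurred in 7.71% of all probe sets. AMS read 350.4 and 534.4 in INT against 144.3 to 386.9 on the others. By type the photosynthesis sums were 12570 and 13833 in INT, 13518 and 9482 in CL, and 10704 and 8615 in CH. RCA, Rubisco activase, read 4508 and 4013 in INT, where AUR2 was lowest, against 1400 to 2883 on the other arrays. Its difference was 1.05 between INT and CH and -0.88 between CL and INT, with unadjusted limma p of 0.00893 and 0.0209. The adjusted p was 0.984 and 0.985, and 4.73% and 4.4% of all probe sets had an unadjusted p under 0.05 there. PSAN did not follow RCA, with 8062 and 9820 in INT against 5733 to 11082 on the other arrays. It differed by 0.25 between INT and CH and by -0.04 between CL and INT, with unadjusted limma p of 0.486 and 0.912. The part of these markers and their tissues in the AUR2 result was not tested.

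The controls examined were 25S ribosomal RNA, GAPDH, actin and ubiquitin. Of these, only ubiquitin had a ratio of 3' to 5' signal lower on both INT arrays than on all others. The ubiquitin ratio was 1.17 and 1.54 in INT against 1.56 to 2.01 on the other arrays, so INT replicate 2 lay just below CH replicate 2. Its part in the AUR2 result was not tested. Median intensity of the 6 arrays was 260.7 to 301.7. The same ratio, a measure of RNA integrity, overlapped between INT and the other types for the GAPDH control (0.36 to 0.63 over the 6 arrays) and the actin control (0.72 to 2.22). The 25S ribosomal RNA control was brighter on replicate 1 of every type, as AUR1 and AUR2 were, with a range from 145.9 to 2652. The GAPDH ratio was also higher on replicate 1 of every type. The part of either control in the gap between replicates was not tested.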

How the data were processed

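The deposited table gave the intensity of 22810 probe sets on 7 arrays. Per the labels, the RNA arrays were calibrated by the authors against the array of genomic DNA. How probes were summarized is not given in the sources used here, nor is the DNA threshold. The deposited intensity values are linear and have the same mean on each array once 2% of probe sets are trimmed from each end.

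An offset of 28.2, which is 0.1 of the median RNA value, was added before taking log2, so fold changes of dim genes are understated. Array medians ranged over 0.19 log2 units, and the arrays were quantile normalized. After leaving out 64 control probe sets, limma 3.58.1 in R 4.3.3 fitted flower type to the 6 RNA arrays, using eBayes and a trend. All tests are two-sided, and p-values carry Benjamini-Hochberg adjustment over 22746 probe sets, with a threshold of 0.05. Precision is limited by the number of arrays.

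The platform annotation gave 13513 probe sets 1 gene, 503 several and 8794 none. AUR1, AUR2 and measured partners were always named; from each other cell division list, the 4 genes with the highest mean RNA level; and the 5 most alike and 3 most opposite genes of each kinase. Members and lists were chosen with earlier results of these data known. Replicate differences correlated at 0.25 between CL and CH, -0.05 between CL and INT and -0.05 between INT and CH. Alternatives were other scalings, 2 other offsets, filters on RNA level and on DNA intensity, no trend, only the 4 arrays compared, a replicate block and leaving out each array. Plots used Python 3.11.15 and matplotlib 3.10.9.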

Additional observations from a re-analysis of the deposited data

How the results depend on the processing

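Each of the 3 AUR1 differences changed sign when 1 array was left out, and no AUR2 difference changed sign in any setting run. The AUR2 arrays did not overlap between types, so leaving out 1 array could not change the sign of its differences. No probe set passed the adjusted threshold to begin with, so staying above it says nothing about stability. With single arrays left out, AUR1 ranged from -0.36 to 0.053 in CL against CH, from -0.038 to 0.13 in INT against CH and from -0.40 to 0.0072 in CL against INT. In the same settings AUR2 ranged from 0.15 to 0.50, from -1.22 to -0.57 and from 0.89 to 1.55, and its lowest adjusted limma p was 0.574, without CL replicate 2. The F statistic then ranged from 0.046 to 1.84 for AUR1 and from 3.67 to 10.5 for AUR2. Under the other settings AUR2 ranged from 0.29 to 0.34, from -0.96 to -0.79 and from 1.09 to 1.29. The 0 calls in each comparison, over all probe sets and over the cell division lists, remained 0 in every setting run. The replicate numbers are shared between types but not stated to pair the samples; with the replicate block the AUR2 differences were -0.89 in INT against CH (limma adjusted p = 0.898) and 1.22 in CL against INT (adjusted p = 0.927), and no call changed. AUR1 lay below the 25th percentile of genomic DNA intensity (154.9), so that filter gave no value for it. The correlation of AUR1 and AUR2 ranged from -0.64, with median scaling, to -0.043, without CL replicate 2. With 2 arrays per type, the 95% interval of a CL against CH difference reached 0.90 log2 units to each side for the median probe set and 0.72 for AUR2.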
